A study of Rattus norvegicus with 12 samples.

Results

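The genes that encode the constitutive proteasome were followed in heart muscle of lean ZSF1 rats, obese ZSF1 rats and obese ZSF1 rats given nicotinamide (NAM). Members were the rows of the deposited expression table whose symbol begins with Psma, Psmb, Psmc or Psmd followed by a digit. Of 39 such symbols, the immunoproteasome subunits Psmb8, Psmb9 and Psmb10 were left out, and 1 symbol, Psma8, lay under a mean of 1 TPM, the level per gene scaled to a fixed total per sample. This left 35 of 17104 genes with a number in every sample, and all 35 passed the filter on low values. By textbook role, 14 belong to the 20S core, 17 to the 19S regulatory particle and 3 to the assembly chaperones of the 19S base. The remaining gene, Psmc3ip, matches the pattern by name only, since its product is a partner of meiotic recombinases and not a proteasome subunit.

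The proteasome is the large protease that degrades proteins tagged with ubiquitin. Its barrel-shaped core has outer alpha rings, which gate the entrance, and inner beta rings, which hold the catalytic sites. The regulatory particle recognises ubiquitin, removes it, unfolds the substrate with a ring of ATPases and feeds it into the core. In heart muscle, a tissue of long-lived contractile proteins, it removes damaged and surplus sarcomere proteins, many of them tagged by muscle ubiquitin ligases.

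RNA was sequenced from cardiac muscle of 3 groups of 4 samples. The first was obese ZSF1 rats that drank 24 mM NAM from week 8 to week 20 of age, the second untreated obese ZSF1 rats and the third lean ZSF1 rats, which served as the control without heart failure. The study asked what NAM, a precursor of the coenzyme NAD+, does to diastolic dysfunction in rats that model obesity-linked heart failure. The labels call the obesity diet-induced, while obese rats of the ZSF1 strain are known to lack a working leptin receptor and to be hypertensive. The sources used here give neither diet nor sex, nor the age of the untreated groups. Nothing in the labels states that the 4 samples of a group are 4 animals; the p-values below therefore rest on the spread among samples, and that spread may be technical.

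TPM is a share of each sample's transcripts, corrected for gene length; how many reads stand behind a value is unknown. Transcripts of mitochondrially encoded genes took 71.3 ± 1.69% of TPM in NAM-treated, 75.1 ± 0.376% in obese and 69.1 ± 1.97% in lean hearts (mean ± SD, n = 4). The median log2 change over the 10526 genes tested was -0.20 between obese and lean hearts and 0.25 between NAM-treated and obese hearts. Results are therefore given as deposited and after median-of-ratios scaling, which divides a sample by the typical ratio of its genes to their geometric mean over samples ("rescaled"). Defining cardiomyocyte markers were present, with 6 of 7 measured and a summed level of 16236 to 18858 TPM in NAM-treated, 13223 to 14959 TPM in obese and 18721 to 21673 TPM in lean hearts. As deposited, 6 of these 6 were lower in obese than in lean hearts and 5 were higher with NAM, against 1 and 1 after rescaling. Of 2 endothelial markers, 1 was lower in obese hearts and 1 higher with NAM as deposited, with 0 called after rescaling. Summed erythroid markers stood at 304 to 1343 TPM in NAM-treated, 908 to 2225 TPM in obese and 426 to 835 TPM in lean hearts. Every obese sum lay above every lean one, though none of these 3 genes was called. Hbb made up most of the sum, with means of 1468 TPM in obese and 681 TPM in lean hearts. Alas2 was also higher in obese than in lean hearts (8.57 against 3.41 TPM), while Slc4a1 was lower (1.83 against 2.52 TPM). In bulk tissue, fewer cells of a type and less RNA per cell cannot be told apart, and the part of either in the results below was not tested.

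Among subunits, core transcripts lay above those of the regulatory particle on the TPM scale, with median mean levels of 50.2 TPM over the 14 core genes and 24.9 TPM over the 17 regulatory genes (means of 12 samples). Psmb7, a catalytic subunit, had the highest level at 121 TPM, followed by the alpha subunit Psma6 at 88.4 TPM. The lowest core gene was the alpha subunit Psma3l at 20.6 TPM, so subunits that sit in the core in equal number differed 5.90-fold in transcript level. Among the 17 regulatory genes that the symbol rule gives, levels ran from 55.4 TPM for the ATPase Psmc5 to 12.7 TPM for the lid subunit Psmd3. Adrm1 and Sem1, regulatory particle genes whose symbols the rule does not match, are not in this range or in the sums below. The chaperones were lower still, at 9.57 TPM for Psmd10, 5.88 TPM for Psmd5 and 2.96 TPM for Psmd9. Psma3l is listed by RefSeq as a synonym of Psma3, a symbol that no member carries. Whether its row stands for Psma3, and how reads were assigned to it, is not known, so its level is uncertain.

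The members varied little between samples of the same group. Their median standard deviation within groups was 0.147 on the log2(TPM + 1) scale, against 0.186 over all genes tested and 0.167 over the 4997 of them with a mean of at least 5 TPM. Psmd11, a lid subunit, varied least (0.0870) and Psmb6, a catalytic subunit, most (0.509). Psmb6 stood apart from the other core and regulatory genes, whose next highest value was that of Psma3l (0.239).

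**Figure D1:**
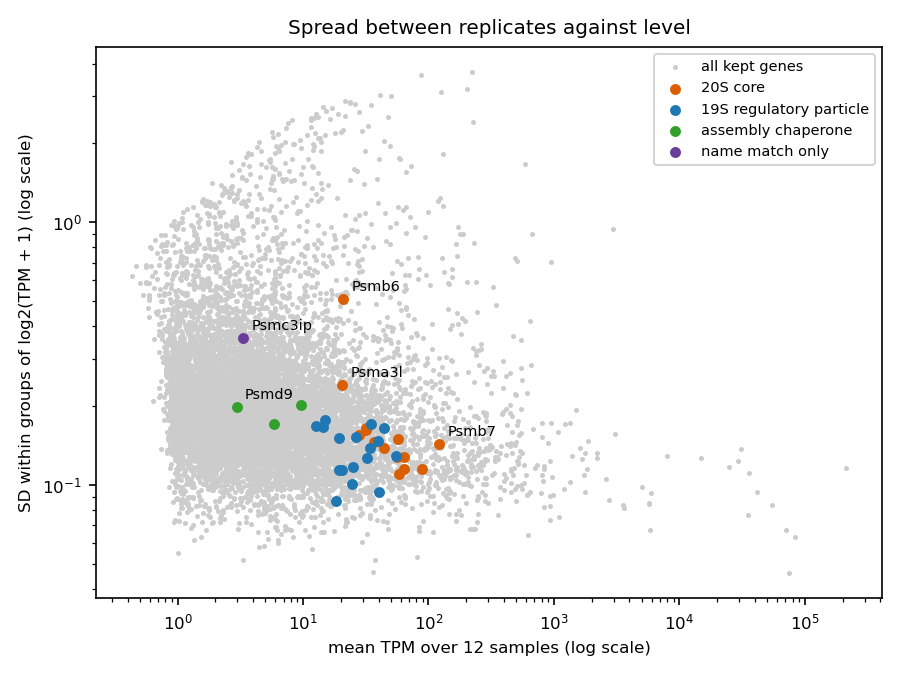
Each point is a gene, with its mean TPM over 12 samples on the horizontal axis (log scale) and its standard deviation within groups of log2(TPM + 1) on the vertical axis (log scale); grey points are all genes tested and coloured points the 35 members. Psmb6 lies at 0.509, above every other core and regulatory gene.

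Promoter sequences were read from RefSeq for the assembly GRCr8, where 31 of 35 members had an entry, that of Psma3l under the symbol Psma3. Psma7, Psmd6, Psmd12 and Psmd14 had none. The table spans 250 bases before to 50 bases after each start. Shown here are the 150 bases before the start of 4 genes: Psmd11, the member that varied least within groups, and the 3 catalytic subunits. Capitals mark matches to the antioxidant response element core TGACNNNGC, the site type of Nfe2l1 and Nfe2l2, and to the ETS core CCGGAAG, on either strand.
Psmd11 (chr10:65932193-65932342, plus strand): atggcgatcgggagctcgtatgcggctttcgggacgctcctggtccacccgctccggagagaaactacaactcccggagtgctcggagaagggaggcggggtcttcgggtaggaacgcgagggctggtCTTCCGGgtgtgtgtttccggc
Psmb7 (chr3:42827471-42827620, minus strand): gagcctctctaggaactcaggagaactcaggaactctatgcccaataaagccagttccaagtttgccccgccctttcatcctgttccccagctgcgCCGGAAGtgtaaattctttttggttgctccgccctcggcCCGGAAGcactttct
Psmb5 (chr15:32047380-32047529, minus strand): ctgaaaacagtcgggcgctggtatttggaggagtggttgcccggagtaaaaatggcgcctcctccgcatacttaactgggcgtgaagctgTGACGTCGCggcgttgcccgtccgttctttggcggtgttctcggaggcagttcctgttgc
Psmb6 (chr10:55737738-55737887, plus strand): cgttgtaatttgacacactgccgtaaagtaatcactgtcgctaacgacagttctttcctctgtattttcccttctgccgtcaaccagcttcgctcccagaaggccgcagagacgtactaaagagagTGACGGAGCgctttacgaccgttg

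Psmb5 and Psmb6 each held 1 antioxidant response element core, beginning 60 and 24 bases before the start. Psmb7 held 2 ETS cores, 54 and 15 bases before the start, and Psmd11 held 1, 22 bases before it. Over the 300 bases of the 31 promoters, TGACNNNGC occurred in 7 (22.6%), against 12.1% of all 33469 promoters and 15.1% of the 8412 promoters of tested genes. It was found in 4 of 13 core and 2 of 14 regulatory particle promoters. CCGGAAG occurred in 11 (35.5%), against 8.75% and 18.4%, and was found in 7 of 14 regulatory particle promoters and 3 of 13 core promoters. The CCAAT box, left in lower case above, occurred in 17 (54.8%), against 37.5% and 37.5%. It was found in 9 of 13 core promoters (69.2%) and 5 of 14 regulatory particle promoters (35.7%). The 31 promoters include that of Psmc3ip, no subunit, which held both CCGGAAG and CCAAT. Both strands were searched, and matches of different motifs may overlap. GC content had a median of 56.0% in members' promoters and 61.0% in those of tested genes. These matches describe letters in the window and say nothing of whether a factor was bound.

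As deposited, transcripts of the core were lower in obese than in lean hearts and higher in NAM-treated than in obese hearts, without overlap between obese samples and either other group. The summed core level was 828, 675, 757 and 761 TPM in NAM-treated, 595, 648, 587 and 660 TPM in obese and 877, 773, 759 and 773 TPM in lean hearts. For the regulatory particle the sums were 556, 463, 496 and 535 TPM in NAM-treated, 395, 438, 378 and 393 TPM in obese and 575, 496, 495 and 496 TPM in lean hearts. After rescaling the groups came together. The rescaled core sum averaged 684 ± 15.1 in NAM-treated, 708 ± 34.2 in obese and 755 ± 32.2 in lean hearts, and that of the regulatory particle 465 ± 15.9, 456 ± 18.9 and 489 ± 24.1 in the same order (rescaled TPM, mean ± SD, n = 4). All 4 rescaled core sums of NAM-treated hearts, 675 to 707, lay below the 4 of lean hearts, 729 to 802, while obese hearts, 671 to 754, overlapped both groups.

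**Figure D2:**
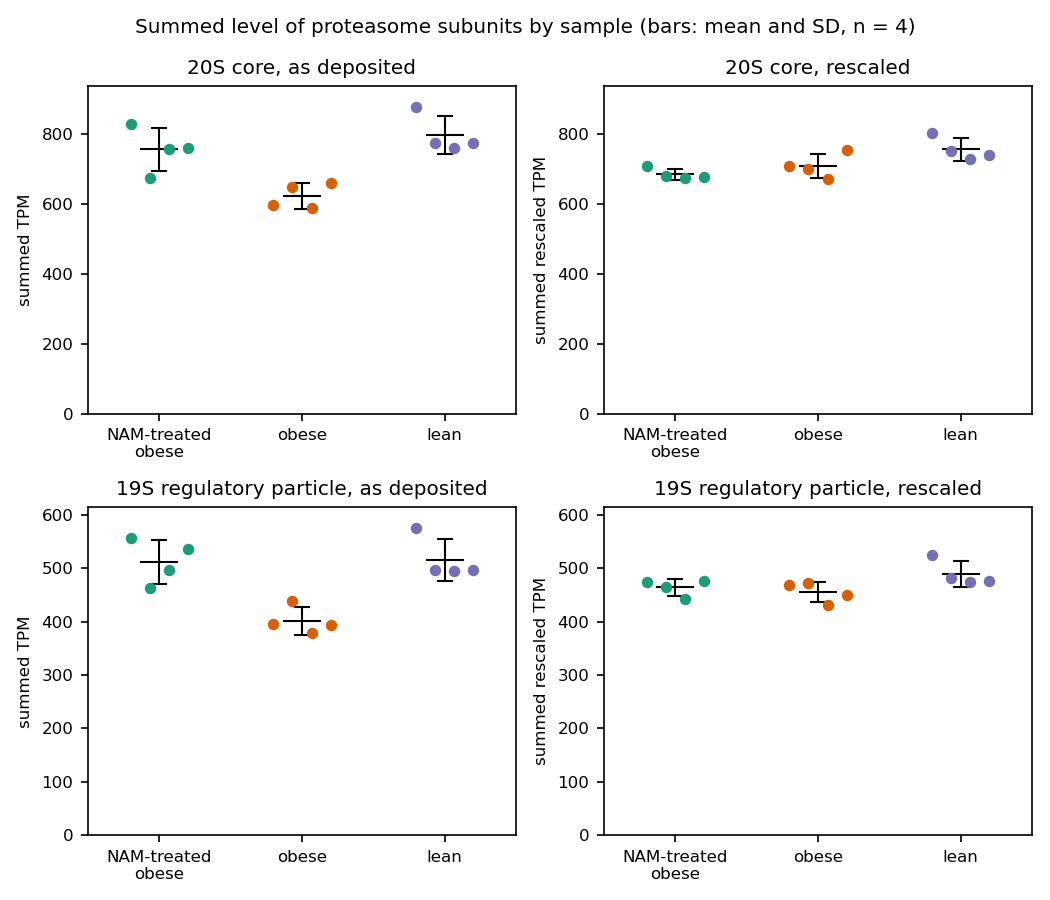
Summed level of the 14 core genes (top) and the 17 regulatory particle genes (bottom) in each sample, in TPM as deposited (left) and in rescaled TPM (right), with group mean and SD (n = 4). Obese samples sit lowest as deposited, at 587 to 660 TPM for the core, and overlap the NAM-treated samples after rescaling.

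The regulatory particle to core ratio, which no scaling of a sample can move, had its highest mean in NAM-treated hearts. It was 0.671, 0.686, 0.655 and 0.704 in NAM-treated, 0.663, 0.676, 0.643 and 0.596 in obese and 0.655, 0.642, 0.652 and 0.642 in lean hearts. The means were 0.679 ± 0.0209, 0.645 ± 0.0350 and 0.648 ± 0.00667 (SD, n = 4). NAM-treated and obese samples overlapped, and obese samples lay on both sides of the narrow lean range. The lowest NAM-treated and the highest lean ratio both stood at 0.655, and the other NAM-treated ratios lay above all lean ones. Whether the groups differed in this ratio was not tested. Of all TPM outside the mitochondrially encoded genes, core and regulatory genes took 0.442 ± 0.0127% in NAM-treated, 0.411 ± 0.0240% in obese and 0.425 ± 0.00404% in lean hearts, a share on which obese and lean samples overlapped. On this share the 4 NAM-treated samples, 0.432 to 0.460%, all lay above the 4 lean samples, 0.420 to 0.430%, while their rescaled core sums all lay below, so the order of these groups depends on the scale.

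Obese against lean hearts asked how the metabolic disease state differs from the control. As deposited, 17 of 35 members fell and 0 rose (limma on log2(TPM + 1), Benjamini-Hochberg adjusted p under 0.05 over all genes tested), where 16.5% of all genes tested were called lower and 0.352% higher. Among genes with a mean of at least 5 TPM, tested alone, 24 members were called lower, beside 33.4% of those genes. The log2 change was below 0 in 34 of 35 members, with a median of -0.33 beside -0.20 over all genes and beside -0.25 over genes with a mean of at least 5 TPM. In 19 members the 4 obese values all lay below the 4 lean values, beside 23.2% of all genes. After rescaling, limma called 0 of 35 members, beside 0.751% of all genes called lower and 0.589% higher. The 5 members lower and 0 higher at an unadjusted p under 0.05 stood beside 899 and 857 of the 10526 genes tested. The rescaled median was -0.07, beside 0.0032 over all genes, with 30 of 35 members below 0. The 4 obese values lay below the 4 lean values in 3 members, beside 5.31% of all genes. Left out in turn, lean replicate 1 reduced the 17 calls to 6, obese replicate 3 to 11 and obese replicate 4 to 11.

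NAM-treated against obese hearts addressed the treatment. As deposited, 17 of 35 members rose and 0 fell, where 28.8% of all genes tested were called higher and 0.466% lower (limma, same rule). Among genes with a mean of at least 5 TPM, tested alone, 24 members were called higher, beside 47.3% of those genes. The log2 change was above 0 in 33 of 35 members, with a median of 0.31 beside 0.25 over all genes and beside 0.30 over genes with a mean of at least 5 TPM. In 16 members the 4 NAM-treated values all lay above the 4 obese values, beside 28% of all genes. After rescaling, limma called 0 members, beside 0.2% of all genes called higher and 0.513% lower. The 2 members higher and 3 lower at an unadjusted p under 0.05 stood beside 765 and 886 of the 10526 genes tested. The rescaled median was -0.0091, beside -0.0078 over all genes. By part, 5 of 14 core and 11 of 17 regulatory genes were called higher as deposited. Their rescaled medians were -0.0657 and 0.0457, and whether the parts differed was not tested. The 17 calls became 10 without NAM-treated replicate 1, 26 without NAM-treated replicate 2 and 11 without obese replicate 3.

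With mitochondrially encoded genes left out and TPM recomputed over the rest, limma called 0 of 35 members in either comparison, beside 0.242% of all genes called higher and 0.227% lower in obese hearts and 1.28% called higher and 0.295% lower with NAM. At an unadjusted p under 0.05, 0 members were higher and 1 lower in obese than in lean hearts, and 10 were higher and 1 lower with NAM. On that scale the members' median log2 change was -0.03 between obese and lean hearts, beside 0.05 over all genes, and 0.11 between NAM-treated and obese hearts, beside 0.09 over all genes. After quantile normalization limma again called 0 members in either comparison, beside 0.504% of all genes called higher and 0.817% lower in obese hearts and 0.333% higher and 0.295% lower with NAM. At an unadjusted p under 0.05, 4 members were lower in obese hearts, and 3 were higher and 3 lower with NAM. Genes outside the members were not counted at that p on these scales, and no other tool was run. Obese samples enter both comparisons, so falls in the first and rises in the second are not independent of each other. As deposited, 8 members were called in both: Psmb2, Psmb3 and Psmb7 of the core and Psmc5, Psmd2, Psmd7, Psmd11 and Psmd14 of the regulatory particle. Another 9 were called in neither, among them the core genes Psma2, Psma3l, Psma5 and Psmb6.

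**Figure D3:**
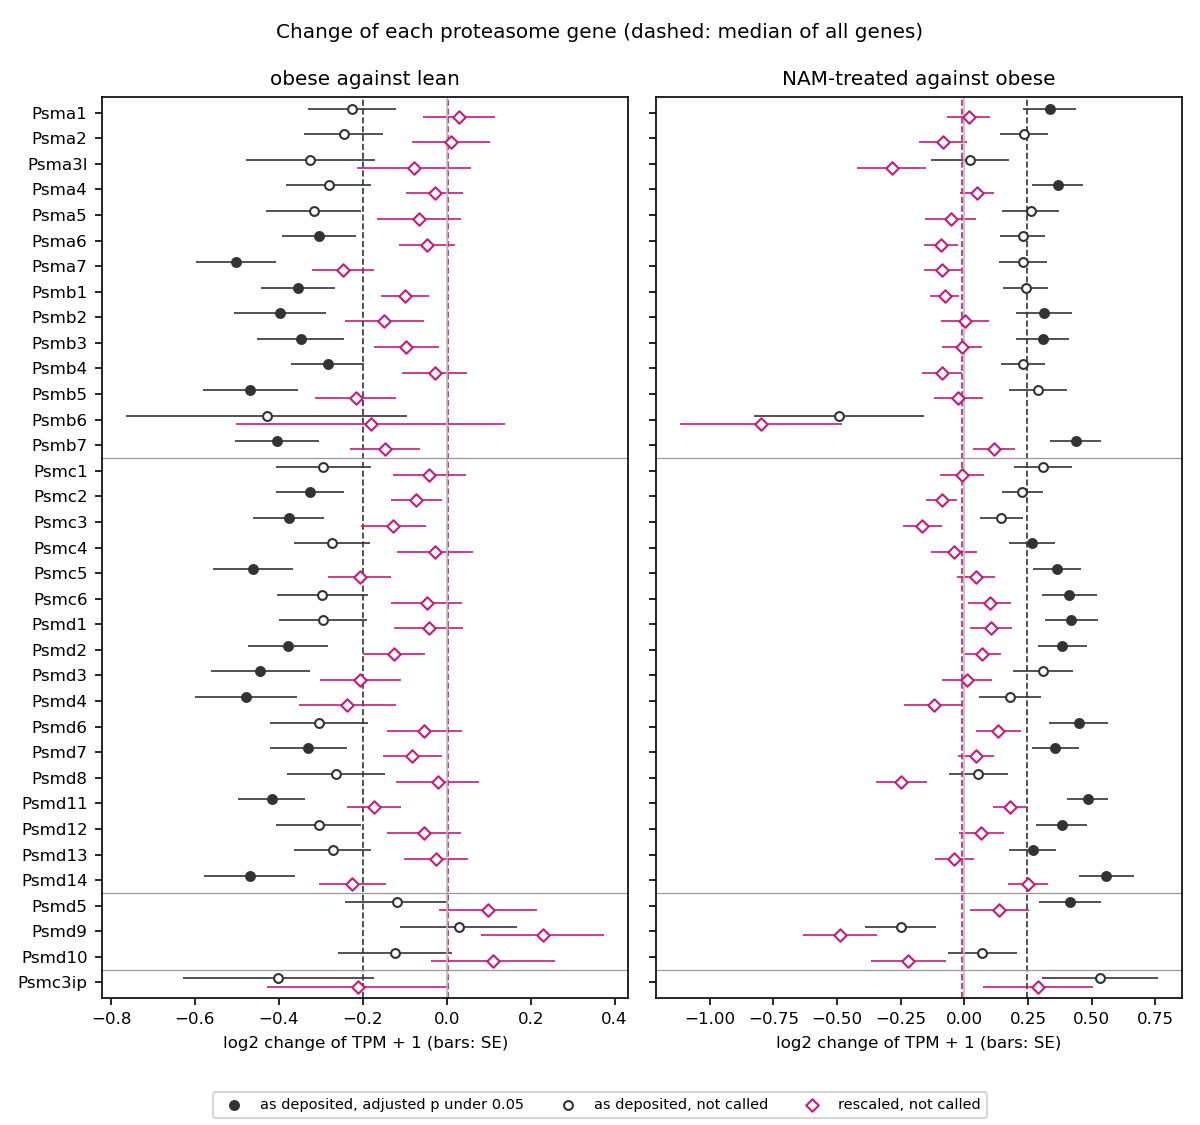
Log2 change of TPM + 1 with its standard error for each member, obese against lean (left) and NAM-treated against obese (right), as deposited (circles, filled where the adjusted p is under 0.05) and rescaled (diamonds); dashed lines mark the median of all genes, at -0.20 and 0.25 as deposited. After rescaling, the genes with filled circles on the left lie between -0.25 (Psma7) and -0.0289 (Psmb4), and those on the right between -0.0416 (Psmc4) and 0.25 (Psmd14).

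NAM-treated against lean hearts showed how far treated obese hearts lay from the control. As deposited, limma called 0 of 35 members, beside 0.865% of all genes called higher and 0.969% lower. Here 1 member was higher and 4 were lower at an unadjusted p under 0.05, beside 1114 and 673 of the 10526 genes tested. The members' median log2 change was -0.04, beside 0.05 over all genes, and in 1 member all NAM-treated values lay below all lean values, beside 3.81% of all genes. After rescaling 1 member, the alpha subunit Psma7, fell (log2 change -0.33, SE 0.07, limma adjusted p = 0.0374), beside 1.59% of all genes called lower and 0.77% higher. At an unadjusted p under 0.05, 0 rescaled members were higher and 9 lower, beside 781 and 990 of the 10526 genes tested. The rescaled median was -0.10, beside 0.0017 over all genes. In 4 members rescaled NAM-treated values all lay below lean values, beside 6.35% of all genes. This call ended in 7 of the 12 fits that left out 1 sample, those without NAM-treated replicates 2, 3 or 4 or without any of the 4 lean samples, with a highest adjusted p of 0.109 without NAM-treated replicate 3. The direction of the members' uncalled changes turned with the scale, but their median lay below the all-gene median on each scale. On the scales below, genes outside the members were not counted at an unadjusted p under 0.05. With mitochondrially encoded genes left out, limma called 0 members, and 6 were higher and 2 lower at an unadjusted p under 0.05. The median was 0.0636, beside 0.15 over the 13229 genes tested on that scale, of which 3.62% were called higher and 0.68% lower. After quantile normalization limma called 0 members, 0 were higher and 6 lower at that p, and the median was -0.0464, beside 0.0267 over all genes, of which 1.1% were called higher and 1.03% lower.

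In the alpha ring, whose 7 subunits gate the core, 2 genes fell in obese hearts and 2 rose with NAM, where 16.5% and 28.8% of all genes were called. The ring's median changes were -0.30 in obese hearts and 0.24 with NAM, beside -0.20 and 0.25 over all genes. Over genes with a mean of at least 5 TPM these medians were -0.25 and 0.30. The count with NAM, 28.6% of the ring, is near the all-gene share, and that in obese hearts, also 28.6%, lies above it. Of genes with a mean of at least 5 TPM, tested alone, 33.4% were called lower and 47.3% higher. Psma7 had 63.4, 47.1, 54.9 and 56.0 TPM in NAM-treated, 46.1, 44.2, 45.0 and 51.9 TPM in obese and 71.7, 62.0, 68.2 and 64.8 TPM in lean hearts. Every obese value lay below every lean value, and NAM-treated values lay between, overlapping both. Psma7 had the largest fall of the members in obese hearts (log2 change -0.50, SE 0.09, limma adjusted p = 0.00518), a call that held in each of the 12 fits with 1 sample left out. Its change with NAM was 0.23 (adjusted p = 0.0795). After rescaling its change in obese hearts was -0.25 (adjusted p = 0.119), again without overlap. Psma6 fell by 0.30 on the log2 scale (adjusted p = 0.0326), a call that ended in 6 of those 12 fits, at the highest adjusted p of 0.0917 without lean replicate 1, and also without lean replicates 3 and 4 and obese replicates 1, 2 and 3.

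Psma1, another alpha subunit, had 73.0, 55.5, 66.8 and 59.9 TPM in NAM-treated, 48.1, 52.1, 46.8 and 53.7 TPM in obese and 64.2, 66.1, 53.4 and 52.5 TPM in lean hearts. NAM-treated values lay above all obese values, while obese and lean values overlapped. It rose with NAM (log2 change 0.34, adjusted p = 0.0312), a call that ended without NAM-treated replicate 1 (0.0947), NAM-treated replicate 3 or obese replicates 1 or 3, and its change in obese hearts, -0.23, did not pass. Psma4 rose with NAM by 0.37 (adjusted p = 0.0176, and 0.0559 without NAM-treated replicate 1). As deposited, Psma3l had the smallest positive change with NAM, 0.02 (adjusted p = 0.927), and its sign turned without NAM-treated replicate 1, obese replicate 1 or obese replicate 3.

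In the beta ring, 6 of 7 genes fell in obese hearts and 3 rose with NAM as deposited. Over all genes tested, 16.5% were called lower and 28.8% higher. Among genes with a mean of at least 5 TPM, tested alone, the shares were 33.4% and 47.3%. The ring's median changes were -0.40 and 0.29, beside -0.20 and 0.25 over all genes and -0.25 and 0.30 over genes of at least 5 TPM. After rescaling, 0 of 7 were called. The catalytic subunit Psmb5, which carries the chymotrypsin-like site, had 35.8, 28.1, 37.0 and 28.4 TPM in NAM-treated, 27.7, 26.8, 23.1 and 26.7 TPM in obese and 41.6, 32.5, 38.0 and 34.2 TPM in lean hearts. All obese values lay below those of both other groups. It fell in obese hearts (log2 change -0.47, SE 0.11, adjusted p = 0.0151; rescaled -0.22, adjusted p = 0.282), and its change with NAM was 0.29 (adjusted p = 0.0680, and 0.0348 without NAM-treated replicate 2).

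Psmb7, which carries the trypsin-like site, had 139, 126, 136 and 135 TPM in NAM-treated, 95.5, 114, 82.4 and 105 TPM in obese and 149, 126, 119 and 130.3 TPM in lean hearts. Obese values lay below all others, and NAM-treated and lean values overlapped. Psmb7 fell in obese hearts (log2 change -0.40, SE 0.10, adjusted p = 0.0174, and 0.0526 without lean replicate 1) and rose with NAM (0.44, SE 0.10, adjusted p = 0.00863).

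As deposited, Psmb6, which carries the caspase-like site, was the only beta subunit with a change below 0 with NAM. After rescaling, 5 of 7 beta ring genes were below 0, Psmb6 at -0.80 (limma adjusted p = 0.263). Whether Psmb6 differed from the others was not tested. It had 15.9, 11.8, 21.4 and 8.21 TPM in NAM-treated, 15.5, 20.9, 18.2 and 24.3 TPM in obese and 35.3, 13.2, 31.4 and 33.3 TPM in lean hearts. The NAM-treated group had the lowest mean, 14.3 ± 5.66 TPM, against 19.7 ± 3.79 TPM in obese and 28.3 ± 10.2 TPM in lean hearts, and all 3 groups overlapped. None of its changes passed: -0.43 for obese against lean (SE 0.33, adjusted p = 0.397), -0.49 for NAM-treated against obese (SE 0.33, adjusted p = 0.287) and -0.92 for NAM-treated against lean hearts (SE 0.33, adjusted p = 0.203). The last was -0.98 after rescaling (adjusted p = 0.149, and 0.0327 in the fit that left out lean replicate 2). Set against Psmb5 in the same sample, Psmb6 stood at 0.443, 0.421, 0.579 and 0.289 in NAM-treated, 0.557, 0.779, 0.786 and 0.910 in obese and 0.848, 0.408, 0.827 and 0.975 in lean hearts. On this ratio the NAM-treated samples were low, lean replicate 2 was as low as they were, and 1 obese sample lay within their range.

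**Figure D4:**
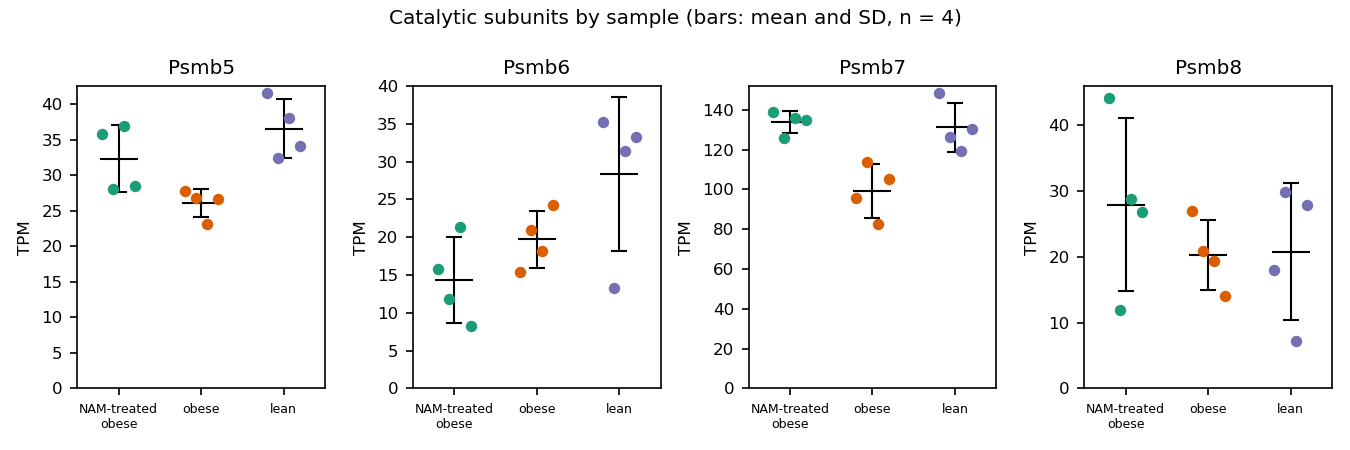
TPM of the catalytic subunits Psmb5, Psmb6 and Psmb7 and of the immunoproteasome subunit Psmb8 in each sample, with group mean and SD (n = 4). Psmb5 and Psmb7 are lowest in obese hearts, Psmb6 has its lowest mean in NAM-treated hearts at 14.3 TPM, and Psmb8 overlaps in all groups.

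The non-catalytic beta subunits Psmb1, Psmb2, Psmb3 and Psmb4 fell in obese hearts by 0.28 to 0.40 on the log2 scale (adjusted p from 0.0180 to 0.0403). Without lean replicate 1 these adjusted p lay between 0.0533 and 0.106. The calls of Psmb2, Psmb3 and Psmb4 also ended without obese replicates 1 or 3 or lean replicate 2, and for some of them without obese replicates 2 or 4, lean replicates 3 or 4 or NAM-treated replicate 3. Psmb2 and Psmb3 also rose with NAM, by 0.31 and 0.31 (adjusted p = 0.0466 and 0.0419), and both of these calls ended in 9 of the 12 fits with 1 sample left out, with the highest adjusted p of 0.133 for Psmb2 without NAM-treated replicate 4 and 0.124 for Psmb3 without NAM-treated replicate 1. They held without NAM-treated replicate 2 or lean replicate 1, for Psmb2 also without obese replicate 2 and for Psmb3 without lean replicate 3.

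The 6 ATPases Psmc1 to Psmc6 form the ring that unfolds substrates. As deposited, 3 fell in obese hearts and 3 rose with NAM, and Psmc5 did both. The shares over all genes were 16.5% lower and 28.8% higher, and after rescaling 0 of the 6 were called. Among genes with a mean of at least 5 TPM, tested alone, the shares were 33.4% and 47.3%. Psmc5 had 67.1, 53.4, 52.0 and 61.6 TPM in NAM-treated, 46.5, 48.8, 42.1 and 43.0 TPM in obese and 69.6, 59.3, 60.5 and 60.7 TPM in lean hearts. Obese values lay below all others. Its log2 change was -0.46 (SE 0.10, adjusted p = 0.00755) for obese against lean and 0.36 (SE 0.10, adjusted p = 0.0148) for NAM-treated against obese hearts, and both calls held in each of the 12 fits with 1 sample left out. After rescaling the change in obese hearts was -0.21 (adjusted p = 0.190), without overlap.

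Psmc3 had 24.6, 22.9, 22.9 and 24.7 TPM in NAM-treated, 23.1, 22.3, 19.7 and 20.5 TPM in obese and 31.9, 28.0, 25.8 and 26.8 TPM in lean hearts. NAM-treated values overlapped obese ones and lay below all lean ones. Psmc3 fell in obese hearts (-0.38, adjusted p = 0.0115), and its changes were 0.15 with NAM (adjusted p = 0.210) and -0.23 for NAM-treated against lean hearts (adjusted p = 0.197). Psmc2 fell by 0.33 in obese hearts (adjusted p = 0.0176, and 0.0537 without lean replicate 1). Psmc6 and Psmc4 rose with NAM by 0.41 and 0.27 (adjusted p = 0.0152 and 0.0425). The Psmc4 call ended in 7 of the 12 fits with 1 sample left out, with the highest adjusted p of 0.119 without NAM-treated replicate 4, and held without NAM-treated replicates 2 or 3, obese replicate 1 or lean replicates 1 or 3. Psmc1 was called in neither comparison, at -0.29 in obese hearts (adjusted p = 0.0878) and 0.31 with NAM (adjusted p = 0.0562, but 0.0223 without NAM-treated replicate 2; it was also called without lean replicate 1).

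Of the scaffold and receptor genes of the base, Psmd2, a scaffold subunit, moved in both comparisons. It had 38.4, 31.0, 34.5 and 38.4 TPM in NAM-treated, 29.0, 29.1, 25.5 and 24.3 TPM in obese and 39.5, 33.2, 34.3 and 34.2 TPM in lean hearts, with obese values below all others. The log2 changes were -0.38 for obese against lean (SE 0.10, adjusted p = 0.0188, and 0.0586 without lean replicate 1) and 0.39 for NAM-treated against obese hearts (SE 0.10, adjusted p = 0.0119). Its fall also lost its call without obese replicates 3 or 4. The other scaffold, Psmd1, rose with NAM by 0.42 (adjusted p = 0.0122) and stood at -0.30 in obese hearts (adjusted p = 0.0692, and 0.0219 without obese replicate 2).

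Psmd4, a ubiquitin receptor, had 15.9, 15.0, 12.5 and 13.9 TPM in NAM-treated, 12.8, 14.0, 12.5 and 10.7 TPM in obese and 22.0, 17.0, 17.8 and 14.8 TPM in lean hearts. Obese values lay below all lean ones, and NAM-treated values overlapped both groups. It fell in obese hearts (-0.48, adjusted p = 0.0189), a call that ended without obese replicate 4 (0.0561) or lean replicate 1, and its change with NAM was 0.18 (adjusted p = 0.276).

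The lid, which holds the deubiquitinase, had 4 of 8 genes lower in obese hearts and 6 of 8 higher with NAM as deposited. Of all genes tested, 16.5% were called lower and 28.8% higher. Among genes with a mean of at least 5 TPM, tested alone, the shares were 33.4% and 47.3%. The lid's medians were -0.32 and 0.37, beside -0.20 and 0.25 over all genes and -0.25 and 0.30 over genes of at least 5 TPM. After rescaling, 0 of 8 were called. Its deubiquitinase Psmd14 had 24.0, 19.3, 23.2 and 23.0 TPM in NAM-treated, 12.2, 16.7, 14.9 and 15.8 TPM in obese and 22.8, 18.7, 20.2 and 22.2 TPM in lean hearts. Obese values lay below all others. Psmd14 fell in obese hearts (-0.47, SE 0.11, adjusted p = 0.0125) and had the largest rise of the members with NAM (0.56, SE 0.11, adjusted p = 0.00446), and both calls held in each of the 12 fits with 1 sample left out.

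Psmd11, a scaffold subunit of the lid, had 21.8, 20.1, 20.5 and 20.8 TPM in NAM-treated, 13.2, 16.9, 14.2 and 14.2 TPM in obese and 19.6, 19.5, 19.6 and 20.3 TPM in lean hearts. Here too obese values lay below all others, and the lean samples differed by less than 1 TPM. Its log2 changes were -0.42 (SE 0.08, adjusted p = 0.00579) for obese against lean and 0.49 (SE 0.08, adjusted p = 0.00307) for NAM-treated against obese hearts, with both calls held in each of those 12 fits. Psmd14 and Psmd11 were also the 2 members whose rescaled NAM-treated values all lay above the rescaled obese values, beside 4.87% of all genes. Their rescaled changes with NAM were 0.25 (adjusted p = 0.155) and 0.18 (adjusted p = 0.207), and in obese hearts -0.22 (adjusted p = 0.177) and -0.17 (adjusted p = 0.201).

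Psmd7, the inactive partner of the deubiquitinase, fell in obese hearts by 0.33 (adjusted p = 0.0276, and 0.0807 without lean replicate 1) and rose with NAM by 0.36 (adjusted p = 0.0137). The fall of Psmd7 also lost its call without lean replicates 2 or 4 or obese replicates 1 or 4. Psmd3 fell by 0.44 in obese hearts (adjusted p = 0.0230, and 0.0716 without lean replicate 1; the call also ended without obese replicates 3 or 4). Psmd6, Psmd12 and Psmd13 rose with NAM by 0.45, 0.38 and 0.27 (adjusted p = 0.0144, 0.0155 and 0.0424), and the Psmd13 call ended in 7 of the 12 fits, with the highest adjusted p of 0.115 without NAM-treated replicate 3, and held without NAM-treated replicate 2, obese replicate 2 or lean replicates 1, 3 or 4. Psmd8 was the lid gene with the smallest change with NAM as deposited, 0.05 (adjusted p = 0.751), a sign that turned without NAM-treated replicate 4 or obese replicate 1, and it stood at -0.25 after rescaling (adjusted p = 0.257).

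Of the 3 chaperones that assemble the base, 0 were called in obese hearts (limma, as deposited, also 0 at an unadjusted p under 0.05). With NAM 1, Psmd5, was called. These counts stand beside 16.5% of all genes called lower in obese hearts and 28.8% called higher with NAM. Psmd5 had 8.12, 6.24, 6.91 and 6.88 TPM in NAM-treated, 5.13, 5.73, 4.33 and 4.92 TPM in obese and 4.32, 5.85, 6.65 and 5.51 TPM in lean hearts. NAM-treated values lay above all obese ones, and obese and lean values overlapped. It rose with NAM (0.41, SE 0.12, adjusted p = 0.0246), a call that ended without NAM-treated replicate 1 (0.0741) or obese replicates 3 or 4, and its change in obese hearts was -0.12 (adjusted p = 0.519).

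Psmd9 had 2.35, 2.99, 2.58 and 2.18 TPM in NAM-treated, 3.84, 2.90, 2.58 and 3.49 TPM in obese and 4.12, 2.57, 3.25 and 2.62 TPM in lean hearts, with overlap between all groups. As deposited, it was the only member with a change above 0 in obese hearts, 0.03 (adjusted p = 0.904). That sign turned without obese replicates 1 or 4 or lean replicates 2 or 4. After rescaling, 5 members were above 0 in obese hearts, Psmd9 at 0.23 (adjusted p = 0.480). With NAM Psmd9 stood at -0.25 as deposited (adjusted p = 0.189) and -0.49 rescaled (adjusted p = 0.141). Psmd10, also known as the oncoprotein gankyrin, stood at -0.12 and 0.07 in the 2 comparisons (adjusted p = 0.551 and 0.723). Psmc3ip, which is no subunit, stood at -0.40 in obese hearts (adjusted p = 0.234) and 0.53 with NAM (adjusted p = 0.0919). Without lean replicate 3 these had adjusted p of 0.0373 and 0.0323 and the change with NAM was also called without NAM-treated replicate 2.

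Around the proteasome, 44 of 45 listed genes of other core forms, assembly, transcription, ubiquitin and muscle ligases were measured. Their counts below are as deposited and stand beside 16.5% of all genes tested called lower in obese hearts and 28.8% called higher with NAM, and beside all-gene medians of -0.20 and 0.25. Among genes with a mean of at least 5 TPM, tested alone, the shares were 33.4% and 47.3% and the medians -0.25 and 0.30. After rescaling, 1 gene of these lists was called in these comparisons, the ligase Fbxo32 with NAM. Of 8 genes of immunoproteasome subunits, activators and a regulator, 1 fell in obese hearts and 3 rose with NAM (medians -0.24 and 0.27, rescaled -0.0039 and -0.0390). The one that fell was Psme4, an activator of the core, with 21.9, 17.4, 19.8 and 21.0 TPM in NAM-treated, 13.8, 16.5, 13.0 and 15.4 TPM in obese and 19.2, 20.6, 21.0 and 20.6 TPM in lean hearts. Obese values lay below all others. Its log2 changes were -0.45 (adjusted p = 0.00767) for obese against lean and 0.43 (adjusted p = 0.00742) for NAM-treated against obese hearts. The activator subunit Psme1 and the inhibitor Psmf1 rose with NAM by 0.28 and 0.33 (adjusted p = 0.0346 and 0.0398). These calls ended in 4 and 7 of the 12 fits with 1 sample left out, with the highest adjusted p of 0.104 for Psme1 without NAM-treated replicate 1 and 0.116 for Psmf1 without NAM-treated replicate 3. The immunoproteasome subunit Psmb8, induced by interferon, ranged from 12.0 to 44.1 TPM in NAM-treated, 14.0 to 26.9 TPM in obese and 7.23 to 29.8 TPM in lean hearts, so replicates differed more than groups. Psmb9 and Psmb10 were called in neither comparison (adjusted p from 0.0859 to 0.919).

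Of 10 core assembly and associated genes, 2 fell in obese hearts and 4 rose with NAM (medians -0.25 and 0.25, rescaled 0.0040 and -0.0574). Adrm1, a ubiquitin receptor of the base, fell (-0.66, adjusted p = 0.00907; rescaled -0.43, adjusted p = 0.137, and 0.0444 without lean replicate 4). The proteasome-bound deubiquitinase Usp14 fell (-0.37, adjusted p = 0.0233, and 0.0721 without lean replicate 1; also lost without lean replicate 4 or obese replicates 1 or 3) and rose with NAM (0.56, adjusted p = 0.00369). The core maturation factor Pomp had 189, 157, 176 and 183 TPM in NAM-treated and 140, 153, 132 and 156 TPM in obese hearts. These did not overlap, and Pomp rose with NAM (0.28, adjusted p = 0.0241, and 0.0725 without NAM-treated replicate 1; also lost without NAM-treated replicates 3 or 4 or obese replicates 1 or 3). The core assembly chaperone Psmg2 rose with NAM by 0.47 (adjusted p = 0.0299, and 0.0848 without NAM-treated replicate 1), a call that ended in 5 of the 12 fits.

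Of 7 transcription factors and their regulators, 1 gene was called, and it was called in both comparisons (list medians -0.22 and 0.17, rescaled -0.0279 and -0.10). This was Nfe2l1, the factor that drives proteasome genes when proteasome activity is short, with 41.0, 34.8, 39.4 and 39.9 TPM in NAM-treated, 31.7, 30.4, 22.4 and 27.1 TPM in obese and 41.3, 35.7, 34.8 and 32.6 TPM in lean hearts. Obese values lay below all others. It fell in obese hearts (-0.37, adjusted p = 0.0395; rescaled -0.12, adjusted p = 0.616) and rose with NAM (0.47, adjusted p = 0.00984; rescaled 0.16, adjusted p = 0.486). The fall lost its call in 7 of the 12 fits with 1 sample left out, those without lean replicates 1, 2 or 3, obese replicates 3 or 4 or NAM-treated replicates 3 or 4, with the highest adjusted p of 0.112 without lean replicate 1. Nfe2l2, the factor of the antioxidant response, stood at 0.06 in obese hearts (adjusted p = 0.718) and 0.20 with NAM (adjusted p = 0.134).

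Among 10 ubiquitin and substrate delivery genes, 3 fell in obese hearts and 7 rose with NAM (medians -0.29 and 0.33, rescaled -0.0386 and 0.0298). The ubiquitin-activating enzyme Uba1 fell in obese hearts (-0.38, adjusted p = 0.0215, and 0.0633 without obese replicate 3; also lost without obese replicates 1 or 4 or lean replicate 1) and rose with NAM (0.59, adjusted p = 0.00336). The unfoldase Vcp rose with NAM (0.49, adjusted p = 0.00394). Its cofactor Nploc4 rose as well (0.45, adjusted p = 0.0134).

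Of 9 ubiquitin ligases of muscle, 3 fell in obese hearts and 6 rose with NAM (medians -0.28 and 0.42, rescaled -0.0258 and 0.14). Fbxo32, known as atrogin-1, had 23.0, 19.9, 22.2 and 20.0 TPM in NAM-treated, 11.4, 12.9, 9.87 and 11.5 TPM in obese and 18.4, 16.3, 18.7 and 12.6 TPM in lean hearts. NAM-treated values lay above those of both other groups. Its rise with NAM was 0.85 (SE 0.12, adjusted p = 0.00292), larger than that of any proteasome member, and 0.54 after rescaling (adjusted p = 0.0484), a call that ended in 10 of the 12 fits, with the highest adjusted p of 0.131 without obese replicate 3, and held without obese replicate 2 or lean replicate 4. In obese hearts it fell (-0.48, adjusted p = 0.0178, and 0.0556 without lean replicate 1; also lost without obese replicate 3). Trim63, known as MuRF1, had 28.1, 25.3, 26.8 and 30.8 TPM in NAM-treated, 21.5, 20.7, 17.3 and 18.9 TPM in obese and 32.3, 27.3, 29.1 and 37.8 TPM in lean hearts, with obese values below all others. It fell in obese hearts (-0.66, adjusted p = 0.00348; rescaled -0.41, adjusted p = 0.0737, and 0.0380 without obese replicate 1) and rose with NAM (0.48, adjusted p = 0.00816; rescaled 0.17, adjusted p = 0.450). The ligases Nedd4 and Itch rose with NAM by 0.49 and 0.42 (adjusted p = 0.00528 and 0.00536).

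**Figure D5:**
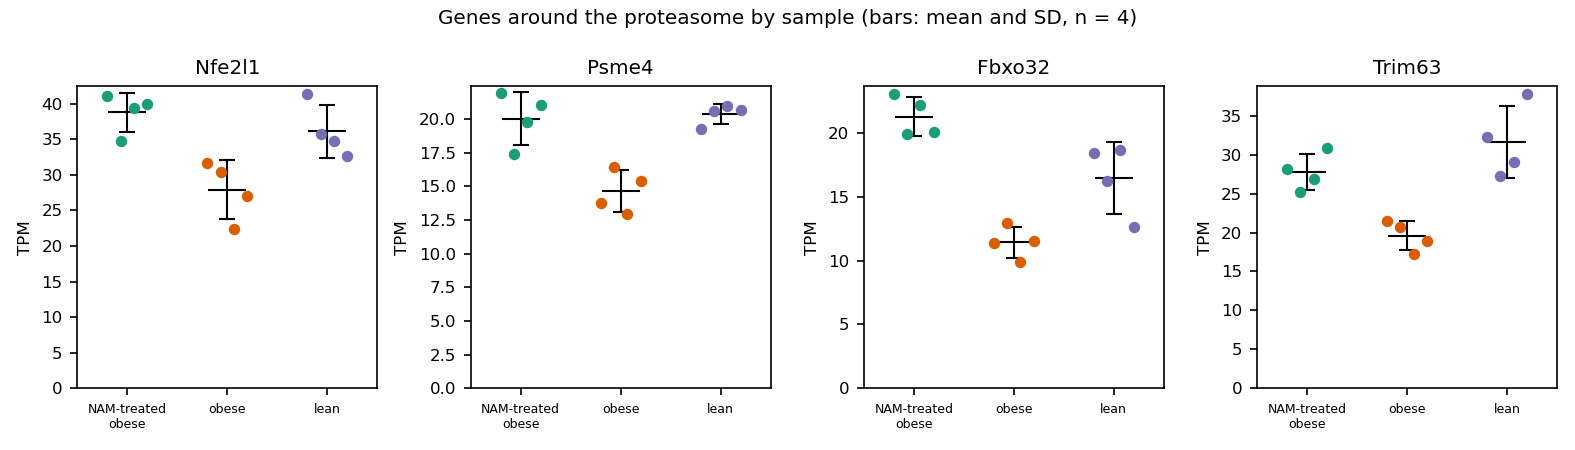
TPM of Nfe2l1, Psme4, Fbxo32 and Trim63 in each sample, with group mean and SD (n = 4). Obese values are lowest for Nfe2l1, Psme4, Fbxo32 and Trim63, with overlap between obese and lean hearts for Fbxo32.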

How the data were processed

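RNA-seq values of 12 cardiac muscle samples, 4 per group, came from a table deposited by the authors in TPM per gene and sample. Where the authors' NAM columns hold #N/A for 498 of 17602 genes, those genes were left out here. The submitters' processing notes name the genome Rnor_6.0 and limma; no source used here gives the aligner, quantifier or gene annotation. Depth per sample is unknown from TPM, so no counting interval is given. From these values, log2(TPM + 1) was taken for the 10526 genes that reached 1 TPM in 4 or more of 12 samples and fitted with limma 3.58.1 (R 4.3.3), with 3 group means, a trended and robust variance prior, 2-sided tests and Benjamini-Hochberg adjustment over all genes tested. A p-value under 0.05 after adjustment is a call. All 12 samples share 1 estimate of spread, with 9 residual degrees of freedom before moderation.

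The same fit was run on TPM rescaled by median-of-ratios factors, which were 0.994 to 1.17 in NAM-treated, 0.841 to 0.928 in obese and 1.03 to 1.09 in lean samples. The code was tested on simulated data. Members come from the symbol rule in the report; those given with values are, per comparison, the 8 with the smallest p as deposited and the 4 after rescaling, the extremes of change and level, and the catalytic, ATPase, scaffold, receptor, deubiquitinase and chaperone genes. Of pathway genes, up to 4 called per list and a few set by name are given. Psma4 and the remaining beta and lid subunits outside this rule were added after their values were seen. The members and lists were chosen with earlier results of these data known. The sample values of Pomp were likewise added. Some listed pathway genes are not reported here. Alternatives were other pseudocounts and filters, a fit to the 8 samples compared, a replicate block, each sample left out, TPM without mitochondrially encoded genes and quantile normalization. No sequencing batch is given in the labels, so none was tested. In log2(TPM + 1), the added 1 understates changes of low genes.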

Additional observations from a re-analysis of the deposited data

Results flagged for a closer look

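Dixon's test on groups of 4 samples, run 195 times on single genes and sums, picked out 6 values, from 4 samples, far from the others of their group, and chance alone picks out about 1 group in 20. Lean replicate 1 was high for the summed core, 877 TPM against 759 to 773 TPM in the other lean samples. It was also high for the summed regulatory particle, 575 TPM against 495 to 496 TPM, and for the ATPase Psmc5, 69.6 TPM against 59.3 to 60.7 TPM. Lean replicate 4 was high for the lid subunit Psmd11, 20.3 TPM against 19.5 to 19.6 TPM. NAM-treated replicate 4 was high for the beta subunit Psmb2, 33.9 TPM against 27.6 to 28.5 TPM. NAM-treated replicate 2 was low for the lid subunit Psmd7, 23.8 TPM against 27.9 to 28.7 TPM. Lean replicate 1 had the lowest share of mitochondrially encoded transcripts of the 12 samples, 66.2% of TPM, and the part of that share in its high sums was not tested.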

How the results depend on the processing

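The counts of members lower in obese hearts and higher with NAM, 17 and 17 as deposited, were 17 and 17 with a pseudocount of 0.1 or of 5, 14 and 12 with no filter, 24 and 24 among genes with a mean of at least 5 TPM and 16 and 14 in fits to the 8 samples compared. They were 0 and 0 with TPM recomputed without mitochondrially encoded genes, and 0 and 0 after quantile normalization; the cause was not tested. Leaving out each sample in turn gave 6 to 20 and 10 to 26. The rescaled count lower in NAM-treated than in lean hearts, 1, was 0 with no filter, 2 with a mean of at least 5 TPM and 0 to 2 with each sample left out. With a replicate block the counts were 15 and 12 as deposited, and 1 rescaled. Deviations of same-numbered samples correlated at -0.049 to 0.0724 over 12 pairs. Differently numbered samples were not compared and the labels do not explain the numbers, so whether they pair the samples is unknown.

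Signs turned for some members, among them Psmb4, called lower in obese hearts as deposited (-0.28), and Psmc4 and Psmd13, called higher with NAM (0.27 and 0.27). Without mitochondrially encoded genes, obese against lean became 0.0763 for Psma1, 0.0172 for Psmb4, 0.0047 for Psmc1, 0.0179 for Psmc4, 0.0028 for Psmd1, 0.16 for Psmd5 and 0.16 for Psmd10. NAM-treated against obese became -0.17 for Psma3l, -0.0480 for Psmc3, -0.00597 for Psmd4, -0.14 for Psmd8 and -0.12 for Psmd10. After quantile normalization, obese against lean became 0.0542 for Psma1, 0.0923 for Psmd5 and 0.11 for Psmd10. NAM-treated against obese became -0.27 for Psma3l, -0.0329 for Psmc2, -0.14 for Psmc3, -0.0133 for Psmc4, -0.10 for Psmd4, -0.22 for Psmd8, -0.0255 for Psmd13, -0.20 for Psmd10 and -0.0781 for Nfe2l2. With each sample left out, NAM-treated against obese ranged from -0.0784 to 0.12 for Psma3l, -0.0505 to 0.15 for Psmd10 and -0.0071 to 0.11 for Psmd8, and obese against lean from -0.0428 to 0.14 for Psmd9 and -0.0073 to 0.13 for Nfe2l2.

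With 4 samples per group and TPM alone and no added standard, depth and absolute RNA amount cannot be recovered from these values.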
